A study of Bos taurus with 54 samples.

Results

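The genes described here encode the proteins of the cytosolic ribosome. They were chosen by symbol, as every gene named RPL or RPS with a number and, in some, a letter ending, together with the stalk genes RPLP0, RPLP1 and RPLP2 and with RPSA, and RPS6K kinases were left out. This gave 83 of the 32637 gene rows of the count files, of which 42 encode core proteins of the large subunit, 3 the P stalk, 31 core proteins of the small subunit and 7 are paralogs named after another member. All 83 had a position in the ARS-UCD2.0 annotation, and they lay on 28 chromosomes.

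Whole blood of 15 Holstein male calves in climate-controlled rooms was drawn in the morning (6AM, thermoneutral control) and in the evening (6PM) after 12 h of heat exposure. The ages of the calves are not given in the sources used here. Red blood cells were lysed before RNA was extracted, and 3′ mRNA libraries were made from the RNA with 2 kits, SMART-Seq v4 3′ DE of Takara and QuantSeq 3′ of Lexogen. The groups are Takara control, Takara heat stress, Lexogen control and Lexogen heat stress, with 13 libraries each of 14 calves, after both libraries of animal 20 were left out. All morning samples were controls and all evening samples were heat-stressed, so heat and time of day cannot be told apart. The sample numbers in the labels fall into 2 separate series, the lower with 8 calves and the higher with 6 of the calves used, which are called run 1 and run 2. What separates the runs is not given in the sources used here.

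The ribosome decodes mRNA on its small subunit and forms peptide bonds on its large subunit, and the proteins of the P stalk recruit the GTPase factors that drive each step. Mammalian cells make the ribosomal proteins in balanced amounts, and their mRNAs start with a terminal oligopyrimidine (TOP) sequence through which mTOR and LARP1 control their translation. In blood, lymphocytes carry abundant ribosomal protein mRNA, while mature neutrophils are poor in ribosomes.

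Reads on genes ranged from 5140595 to 20699030 in the 26 Takara libraries and from 4516761 to 58521751 in the 26 Lexogen libraries, where Lexogen heat stress replicate 15 was the deepest. Genes for rRNA took 32.4% ± 4.61 (SD, n = 13) of gene reads in Lexogen control and 5.81% ± 2.96 in Takara control. Of the 83 members, 79 passed the filter on low counts in each comparison. RPL3L and RPL10L, which are known from muscle and testis, had at most 15 reads in any library. RPS23 and RPL37 were listed at 0 in the unstranded count of all libraries although they had reads in the sense-strand count of each library.

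The members took a smaller share of gene reads after heat stress in the Takara libraries. In Takara control the share was 7.18% at the lowest, 8.98% at the median and 11.7% at the highest, and in Takara heat stress it was 3.18%, 6.56% and 8.66%. Control averaged 8.94% ± 1.31 (SD, n = 13) and heat stress 5.85% ± 2.13 (SD, n = 13). Of the 13 heat stress libraries, 8 lay below every control library, and 8 of the 13 control libraries lay above every heat stress library. The same difference was seen within run 1, with 8.62% ± 0.951 (n = 7) against 5.67% ± 2.23 (n = 7), and within run 2, with 9.31% ± 1.64 (n = 6) against 6.06% ± 2.21 (n = 6). In bulk blood, fewer cells of a type and less RNA per cell cannot be told apart.

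The Lexogen libraries held 5.92%, 9.57% and 14.1% of gene reads on the members in control, and 3.99%, 7.59% and 11.1% after heat stress, again as lowest, median and highest. Control averaged 9.61% ± 2.23 (SD, n = 13) and heat stress 7.29% ± 2.14 (SD, n = 13), and 3 of 13 heat stress libraries lay below every control library. By run the means were 10.6% ± 2.12 (n = 7) against 6.25% ± 1.66 (n = 8) in run 1, and 8.40% ± 1.81 (n = 6) against 8.95% ± 1.83 (n = 5) in run 2. Genes for rRNA took 34.1% ± 4.10 of gene reads in run 2 control and 26.7% ± 5.01 in run 2 heat stress. Without reads on rRNA and haemoglobin genes, the run 2 means were 12.7% ± 2.49 in control and 12.3% ± 3.04 after heat stress. In run 1 they were 15.4% ± 2.40 and 9.40% ± 2.81. A share describes all members at once and was given no test.

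**Figure D1:**
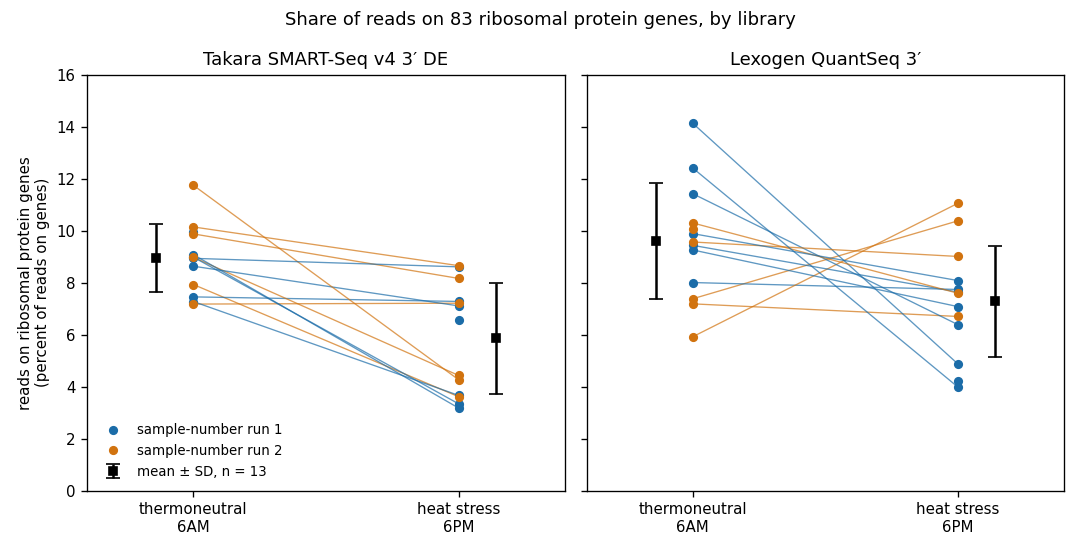
Percent of the reads on genes that fell on the 83 members in each library, with control on the left and heat stress on the right of each panel; points are libraries coloured by run, lines join the libraries of an animal, and squares with bars are means ± SD of 13 libraries. In Takara the heat stress libraries ranged from 3.18% to 8.66% and the control libraries from 7.18% to 11.7%, while in Lexogen the lines of run 2 did not run one way.

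Heat stress against control in Takara was tested with edgeR across 12620 genes, with Benjamini-Hochberg adjustment and a threshold of 0.05. Of the 79 members tested, 66 were lower, 1 was higher and 12 were not called. Among all genes tested 10.5% were lower and 18.4% were higher. The median log2 fold change was -0.44 over the members and -0.05 over all genes, and 78 of the 79 members were on the negative side. Of the 66 lower members, 11 were lower in all 12 animals with both libraries and 60 in at least 10 animals, and the fewest was 8. These members were called from the same libraries, so the counts of animals describe them and are no separate test. The ranges of the groups overlapped for each of the 66. RPL15 was just inside the threshold, with an adjusted p of 0.0490, and RPSA just outside it, with 0.0607.

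The large subunit had 34 of its 41 tested core genes lower, with a median log2 fold change of -0.44. RPL5, which carries 5S rRNA into the subunit and binds MDM2 when it is free, showed the largest decrease. Its level was 279.7, 530 and 1012 CPM (counts scaled to a TMM library size of 1000000; lowest, median and highest of 13 libraries) in control and 255, 363 and 457 after heat stress. It fell by 0.67 on the log2 scale (SE 0.14, edgeR adjusted p = 0.00139) and was lower in 12 of 12 animals. RPL5 lies on chromosome 3, from 50629955 to 50638559.

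RPL35A, a gene mutated in Diamond-Blackfan anaemia as RPL5 is, came next among the large subunit genes. It had 892, 1296 and 2577 CPM in control and 528, 845 and 1277 CPM after heat stress, where 7 of 13 libraries lay below every control library. It fell by 0.63 on the log2 scale (SE 0.15, edgeR adjusted p = 0.00368). RPL9 fell by 0.57 (SE 0.14, adjusted p = 0.00289), from a median of 348 CPM in control to 274 CPM after heat stress. For RPL13A, which is also known from a complex that silences inflammatory mRNAs, control libraries held 1235, 1572 and 3059.8 CPM and heat stress libraries 606, 1224 and 1559 CPM, with a decrease of 0.56 (SE 0.16, adjusted p = 0.0119). RPL36, with medians of 847 and 692 CPM, fell by 0.56 (SE 0.14, adjusted p = 0.00531).

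RPL3, which lies close to the peptidyl transferase centre, had the least overlap among the genes described here. Its level was 612, 712 and 965 CPM in control and 329, 518 and 703 CPM after heat stress. Of the 13 heat stress libraries 11 lay below every control library, and 12 of 12 animals were lower. It fell by 0.52 on the log2 scale (SE 0.11, edgeR adjusted p = 0.00149). RPL22 (-0.48, SE 0.13) and RPL10 (-0.30, SE 0.11) were also lower, with adjusted p of 0.00814 and 0.0340. Of the 7 core genes of the large subunit that were not called, RPL26 had the smallest value, with a log2 fold change of -0.09 (SE 0.11, adjusted p = 0.536), and RPL7 had -0.25 (SE 0.12, adjusted p = 0.125).

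All 3 genes of the P stalk were lower. RPLP0, the anchor of the stalk, had 407, 619.7 and 881 CPM in control and 249, 491 and 645 CPM after heat stress, and fell by 0.39 (SE 0.14, edgeR adjusted p = 0.0344). RPLP2 fell by 0.52 (SE 0.14, adjusted p = 0.00641), with medians of 708 and 513 CPM, and 10 of 12 animals were lower for both genes. RPLP1 fell by 0.37 (SE 0.14, adjusted p = 0.0400) and was lower in 8 of 12 animals. Its heat stress libraries, at 988 to 1401 CPM, lay within the control range of 943 to 2633 CPM.

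The small subunit had 28 of its 30 tested core genes lower, with a median log2 fold change of -0.45. RPS27A, which is made as a fusion with ubiquitin, had 968, 1340.2 and 1808 CPM in control and 688, 1034 and 1425 CPM after heat stress. The groups overlapped, with 4 of 13 heat stress libraries below every control library. It fell by 0.40 on the log2 scale (SE 0.12, edgeR adjusted p = 0.0132), and 10 of 12 animals were lower. RPSA, also known as the laminin receptor, had a log2 fold change of -0.54 (SE 0.22, adjusted p = 0.0607). The other small subunit gene that was not called was RPS3.

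Of the like-named paralogs 5 of 7 were tested, of which 1 was lower and 1 higher, with a median log2 fold change of -0.20. RPS4Y1 was the only member that rose in Takara. Its level was 81.9, 117.1 and 144 CPM in control and 108, 181 and 417 CPM after heat stress, and 7 of 13 heat stress libraries lay above every control library. It rose by 1.02 on the log2 scale (SE 0.22, edgeR adjusted p = 0.00139), in 8 of 12 animals, while 4 were lower. Its namesake RPS4X, from the X-linked copy of the gene, fell by 0.50 (SE 0.12, adjusted p = 0.00324) in 12 of 12 animals, from a median of 285 CPM to 218 CPM. The annotation puts RPS4Y1 on chromosome 23, from 10550055 to 10565856, and RPS4X on chromosome X, from 78400272 to 78404695. Both encode the same small subunit protein in nearly the same form, and only uniquely mapped reads were counted, so reads that fit both copies are in neither count.

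The other paralogs moved less. RPL22L1 fell by 0.46 (SE 0.13, edgeR adjusted p = 0.00912), with medians of 54.8 and 41.2 CPM, beside the -0.48 of RPL22. RPL7L1 (-0.24, SE 0.12, adjusted p = 0.122) was not called, and neither was RPL7. RPL26L1 (-0.20, SE 0.10, adjusted p = 0.132) and RPL26 were not called either. RPS27L, a p53 target, had -0.08 (SE 0.10, adjusted p = 0.562), whereas RPS27 fell by 0.46 (SE 0.14, adjusted p = 0.0158). The differences between paralog and namesake were not tested.

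**Figure D2:**
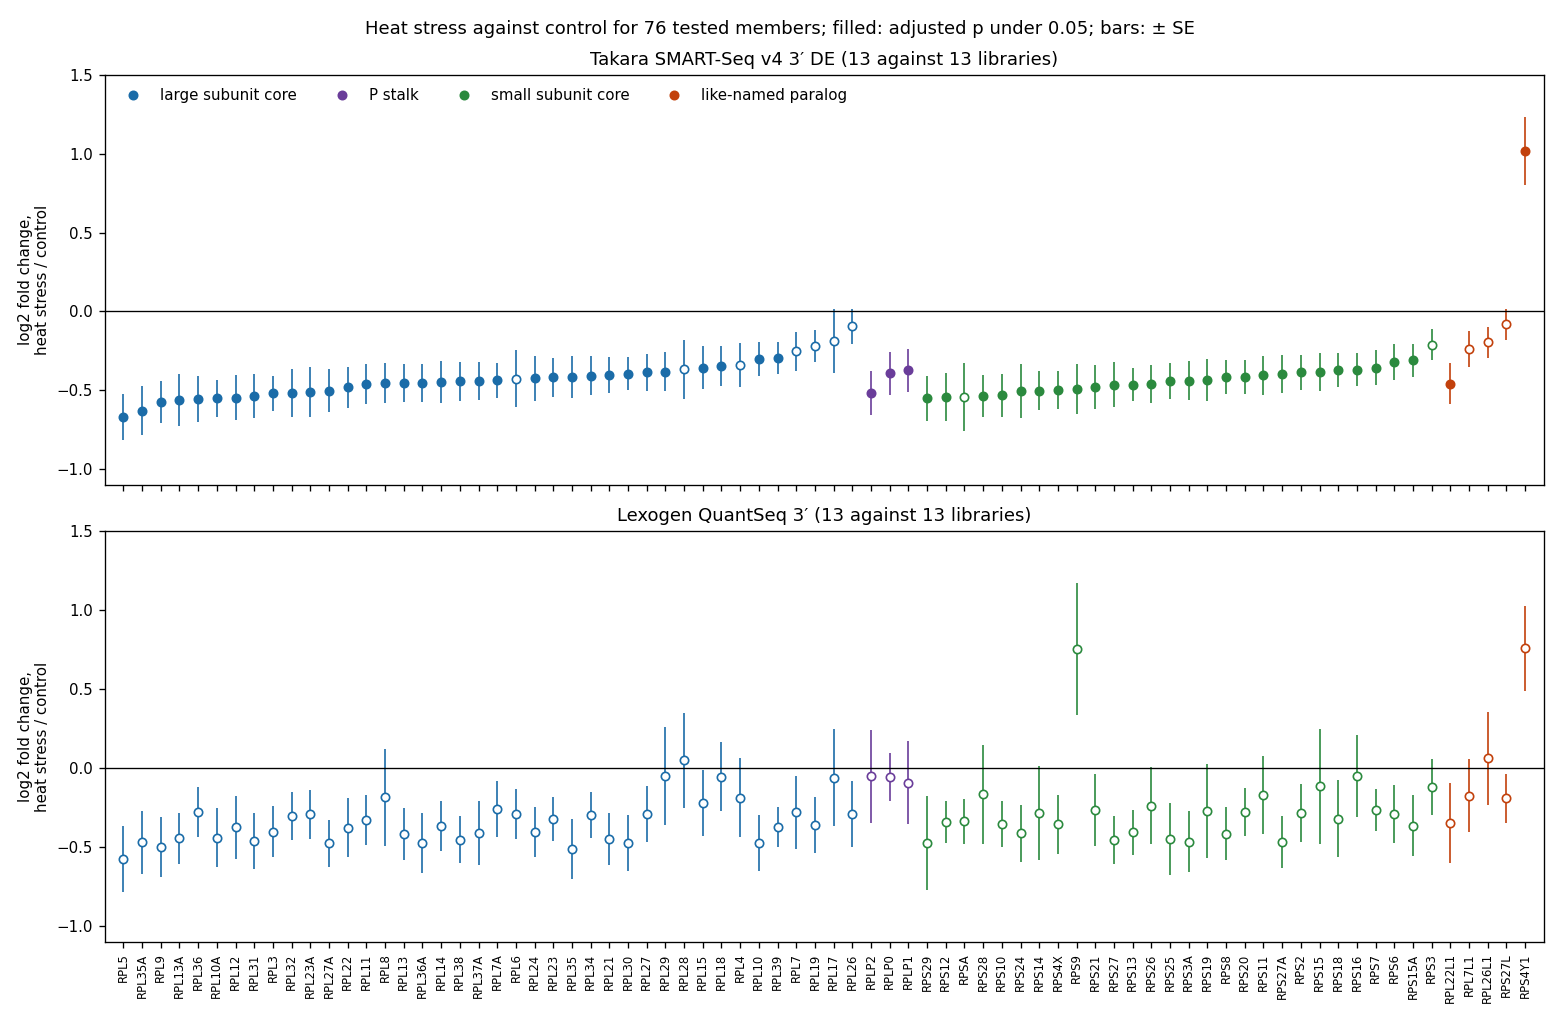
Log2 fold change of heat stress against control (y axis) for 76 of the 79 members tested (x axis, ordered within each role by the Takara value), with Takara above and Lexogen below; bars are ± SE and filled points have an adjusted p under 0.05. In Takara 75 of 76 points lie below 0 and RPS4Y1 stands alone above it, and in Lexogen 72 of 76 lie below 0 with no filled point.

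The count of lower members in Takara changed with the placing of animal 20 and was smaller within each run. With the library of animal 20 as heat stress, as labelled, edgeR called 68 members lower, against 13.2% of all genes, and the median log2 fold change of the members was -0.48. With it as a control sample, edgeR called 0 members and 0% of all genes lower, with a median of -0.39 over the members. At an unadjusted p under 0.05 this edgeR fit had 62 of 79 members and 3804 of 12652 genes. DESeq2 with the same placing called 31 members and 2.29% of all genes lower. Without animal 20, DESeq2 called 65 members lower, against 5.36% of all genes. In run 1 alone edgeR called 6 members lower, against 5.87% of all genes, with a median log2 fold change of -0.36. In run 2 alone it called 7 lower, against 2.55% of all genes, with a median of -0.48. When library sizes were plain totals of reads on genes in place of TMM, 72 members were lower and 1 higher, while 17.3% of all genes were lower and 10.3% higher. That scaling moved the median of all genes from -0.05 to -0.27 and that of the members from -0.44 to -0.61. The members thus lay 0.38 below all genes with TMM and 0.34 below them with the total count. A change of library size moves all genes nearly alike, so this gap cannot test the scaling.

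Within animals, the median log2 ratio of heat stress to control over the 79 members was below 0 in 12 of 12 animals in Takara. It ranged from -1.09 in animal 36 to -0.02 in animal 12, with a mean of -0.45 ± 0.345 (SD, n = 12). All 6 animals of run 1 and all 6 of run 2 were below 0. Animals 12, 14 and 41 had medians of -0.02, -0.03 and -0.06, and in these between 43 and 58 of the 79 members were lower. The median over all genes in the Takara fit was -0.05, near the values of these 3 animals. A median over all genes within each animal was not computed. In animals 18, 36 and 40 the medians were -0.78, -1.09 and -0.75, with 74, 76 and 78 members lower.

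In Takara edgeR called 9 of the 10 neutrophil markers higher, against 18.4% of all genes. Their summed level was 4358, 11633 and 19964 CPM in control and 3852, 42734 and 110293 CPM after heat stress. The within-animal log2 ratio of this sum was 4.27, 3.48 and 2.97 in animals 36, 18 and 40, and 0.32, 0.33 and -0.66 in animals 12, 14 and 41. It was above 0 in 10 of 12 animals. The order of the members was not that of the markers throughout: animal 15 had a marker ratio of 2.96 and a member median of -0.31, and animal 3 had -1.06 and -0.36. In Lexogen, animal 16 had a marker ratio of 3.38 and a member median of -0.05, and animal 23 had -0.08 and -0.43. Of the 14 T cell markers 7 were lower and 0 higher in Takara, against 10.5% and 18.4% of all genes. These markers had a median log2 fold change of -0.43 and a summed level of 1755 to 3606 CPM in control and 1114 to 2686 CPM after heat stress. No T cell or neutrophil marker was at 0 in all libraries. Multimapped reads took 9.87% ± 1.37 of filtered reads in Takara control and 8.39% ± 1.46 after heat stress (SD, n = 13). The part of the cell types and of multimapped reads in the members' difference was not tested.

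**Figure D3:**
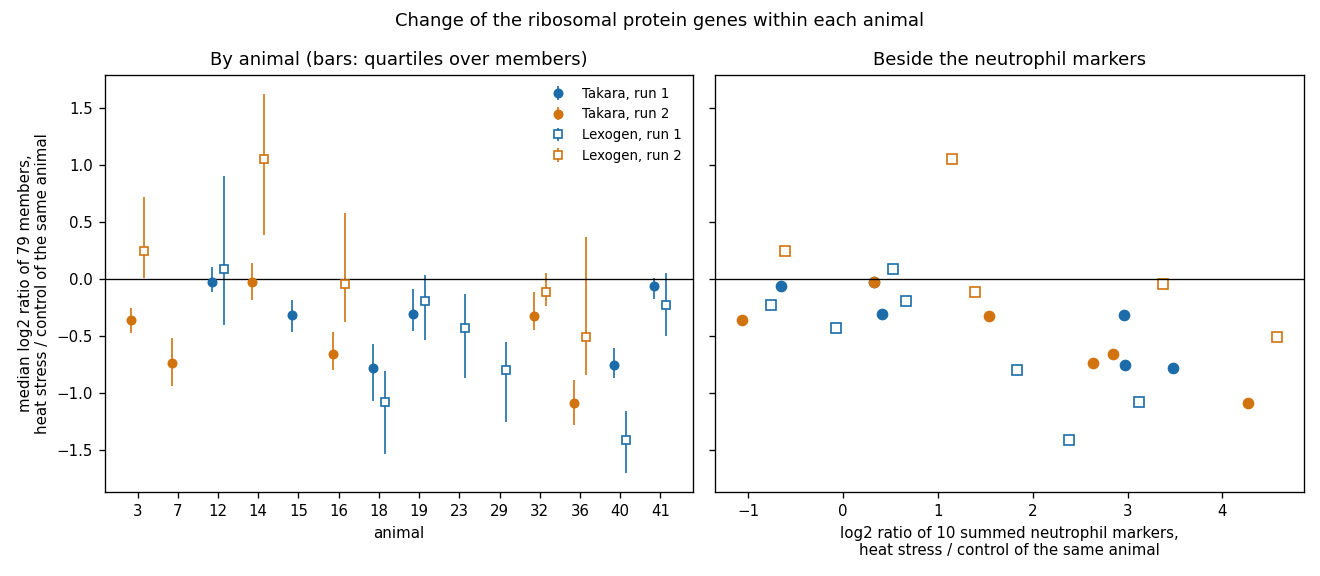
Median log2 ratio of heat stress to control over the 79 members in each animal, by animal (left, bars are quartiles over members) and against the log2 ratio of the summed neutrophil markers of the same animal (right); circles are Takara, squares Lexogen, and colours the runs. The 12 Takara medians lie between -1.09 and -0.02, and the 12 Lexogen medians between -1.42 and 1.05.

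In Lexogen, edgeR called 0 of the 79 members lower or higher among 11108 genes tested, of which 0.459% were lower and 5.09% higher. At an unadjusted p under 0.05 there were 32 lower members and 1 higher, against 597 lower and 1280 higher among the 11108 genes. DESeq2 called 6 members lower, against 0.880% of all genes. The median log2 fold change was -0.32 over the members and -0.08 over all genes, and 74 of 79 members were on the negative side. With the animal as a block the medians were -0.28 and -0.20, so that the members lay 0.083 below all genes in place of 0.24. With this block 19 members were lower at an unadjusted p under 0.05, against 703 of 11108 genes. The large subunit had a median of -0.36, the small subunit -0.30 and the P stalk -0.06.

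RPL5 had 1149.6, 1653 and 2566 CPM in Lexogen control and 277, 1387 and 2023 CPM after heat stress, with a log2 fold change of -0.57 (SE 0.21, edgeR adjusted p = 0.116). For RPS27 the value was -0.45 (SE 0.15, adjusted p = 0.0783), and 10 of 12 animals were lower. RPS4Y1 had 19.02, 28.6 and 63.9 CPM in control and 27.1, 43.5 and 139 CPM after heat stress, with 0.76 (SE 0.27, adjusted p = 0.1002), and 8 of 12 animals were higher. RPLP0, RPLP1 and RPLP2 had values between -0.09 and -0.05, with adjusted p of 0.907 to 0.964. None of these passed the test in Lexogen.

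Fitted by run in Lexogen, the members had different values. In run 1 alone 6 members were lower, against 0.199% of all genes, and the median log2 fold change of the members was -0.61. In run 2 alone 0 members were lower, as were 0% of all genes (edgeR), and the median of the members was 0.05. There 4 members were lower and 13 higher at an unadjusted p under 0.05, against 537 and 738 of 11459 genes. Within animals the median over members ran from -1.42 in animal 40 to 1.05 in animal 14, and 9 of 12 animals were below 0, namely 6 of 7 in run 1 and 3 of 5 in run 2. Animal 14 had 5.92% of gene reads on the members in the control library and 11.1% in the heat stress library, where its Takara libraries had 7.18% and 7.21%. The summed neutrophil markers of animal 14 had a log2 ratio of 1.15 in Lexogen and 0.33 in Takara. The difference between runs was tested as an interaction with edgeR and called 0 members and 0.0222% of all genes. The median difference of the members was 0.61 (run 2 minus run 1). At an unadjusted p under 0.05 there were 32 of 79 members and 1060 of 13484 genes. In Takara the same test called 0 members and 2.27% of all genes, with 3 of 79 members and 2236 of 13767 genes at an unadjusted p under 0.05.

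Whether the kits differed in the response to heat was tested in the RNA samples with libraries of both kits. The interaction was called for 0 members and 0% of all 13354 genes (edgeR), with 526 genes and 10 members at an unadjusted p under 0.05. The interaction values of the members had a median of -0.22 (Takara minus Lexogen), beside 0.07 over all genes, and were negative for 75 of 79. With sense-strand counts the median was -0.12, beside 0.17 over all genes, and 60 of 81 were negative. With unstranded counts the smallest p among the members was that of RPS9, with -1.53 (SE 0.47, edgeR unadjusted p = 0.00303, adjusted p = 1). With sense-strand counts RPS9 had -0.83 (SE 0.27, edgeR unadjusted p = 0.00489, adjusted p = 0.946). RPS9 was named after its value was seen. Calls in Takara and their absence in Lexogen are therefore not shown to differ. The interaction tests, of kit and of run, had low power on simulated data with changes put into genes of any level. In the kit simulation the libraries of an RNA sample were also drawn independently. The median SE of the kit interaction was 0.179 over the members and 0.560 over all genes. The simulation therefore does not give the power for the members. Their 0 calls in these tests do not show an equal response.

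The level of a member was then compared between the kits in 24 RNA samples, with the RNA sample as a block. Of the 79 members 20 were higher in Takara, 47 were lower and 12 were not called, while among 12447 genes 44.5% were higher in Takara and 27.8% lower. The median log2 ratio of Takara to Lexogen was -0.53 over the members and 0.41 over all genes. With the total count as library size these became -0.21 and 0.72. The members lay 0.94 below all genes under both scalings. A change of library size moves all genes nearly alike, so this gap cannot test the scaling. Without the RNA sample as a block the members lay 0.52 below all genes, with 34.5% of all genes higher in Takara and 32.4% lower. In control samples alone the members lay 0.68 below all genes. The P stalk was uneven: RPLP0 had a log2 ratio of -1.35 (SE 0.08, edgeR adjusted p = 1.32e-15), while RPLP1 (0.00, SE 0.17) and RPLP2 (-0.18, SE 0.18) were not called.

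RPL7L1, a nucleolar relative of RPL7, had the largest ratio in favour of Takara. It had 148, 271 and 349 CPM in Takara and 6.94, 39.7 and 65.7 CPM in Lexogen, without overlap, and a log2 ratio of 2.86 (SE 0.11, edgeR adjusted p = 3.57e-20). RPL7 itself had -1.13 (SE 0.12, adjusted p = 6.05e-10). RPS15, of the small subunit, had 924, 1955 and 3277 CPM in Takara and 148, 448 and 1468 CPM in Lexogen, a log2 ratio of 2.04 (SE 0.20, adjusted p = 2.14e-10). Both RPL7L1 and RPS15 were higher in Takara in 24 of 24 RNA samples.

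RPL9 had the largest ratio in favour of Lexogen. Its level was 147, 298 and 578 CPM in Takara and 294, 1552 and 2548 CPM in Lexogen, a log2 ratio of -2.30 (SE 0.09, edgeR adjusted p = 3.81e-20). RPL39, which lines the exit tunnel, had -2.16 (SE 0.06), RPL30 -2.13 (SE 0.08) and RPS12 -1.81 (SE 0.07). All 4 were lower in Takara in 24 of 24 RNA samples, and for RPL39 and RPS12 the ranges of the kits did not overlap. The paralogs went mostly the other way, with 4 of 5 higher in Takara and RPL22L1 lower (-0.90, SE 0.12). Levels of different members within a kit were not ranked.

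**Figure D4:**
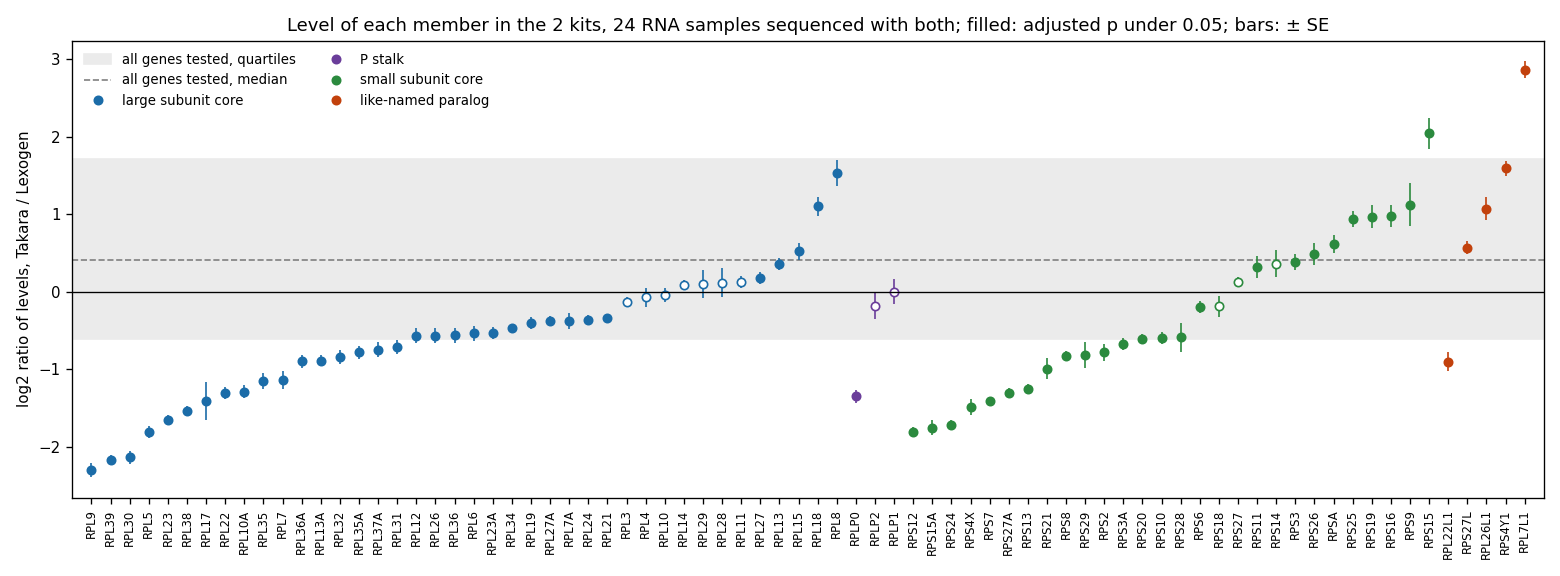
Log2 ratio of the level in Takara to that in Lexogen (y axis) for 76 of the 79 members (x axis, ordered within each role), in 24 RNA samples; bars are ± SE, filled points have an adjusted p under 0.05, and the grey band and dashed line are the quartiles and the median of all genes tested. The members spread from -2.30 for RPL9 to 2.86 for RPL7L1, and 46 of those drawn lie significantly below 0.

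The column of the count files also set the level of some members. The unstranded count was within 2% of the sense-strand count for 75 of the 83 members. RPS23, on chromosome 7 from 82217490 to 82219272 inside the span of ATG10, had 0 unstranded reads and 437849 sense-strand reads over 52 libraries. RPL37, on chromosome 20 from 33653739 to 33656336, where the annotation also lists a snoRNA, had 0 and 1074514. The unstranded count was 33.2% of the sense-strand count for RPSA, 43.4% for RPS9, 72.3% for RPS25, 92.96% for RPLP0 and 96.8% for RPL35, and an overlapping gene is annotated at each of the 5. Such a gene is annotated at 37 of the 83 members, and 30 of these were within 2%. Reads that fit overlapping genes are counted for neither when strand is not used. Whether the annotated overlaps account for the low unstranded counts, such as that of RPL37, was not tested.

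With sense-strand counts, 81 members were tested in Takara and 69 were lower, against 11.1% of all genes. RPS23, a decoding protein of the small subunit, had 645, 829 and 995 CPM of sense-strand reads on genes in Takara control and 263, 519 and 919 after heat stress, and fell by 0.40 on the log2 scale (SE 0.14, edgeR adjusted p = 0.0269). For RPL37 these were 1612, 2270.5 and 3217 in control and 793, 1580.1 and 2107 after heat stress, and fell by 0.40 (SE 0.12, adjusted p = 0.0137). RPSA fell by 0.49 (SE 0.14, adjusted p = 0.0100) and so passed the threshold that it missed without strand. In Lexogen the values of RPS23 and RPL37 were -0.28 (SE 0.22, adjusted p = 0.574) and -0.34 (SE 0.13, adjusted p = 0.125). The log2 ratio of Takara to Lexogen changed for RPSA from 0.61 to 1.86, and for RPS9 from 1.12 to 0.41. RPS9 in Lexogen went from a heat stress value of 0.76 (SE 0.42) to 0.37 (SE 0.27). In the interaction of kit and heat 1 member in place of 10 had an unadjusted p under 0.05, against 631 genes in place of 526.

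Subunits that the symbols leave out followed the members in Takara, with 3 of 4 lower. Among all genes tested in Takara 10.5% were lower and 18.4% higher. RACK1, a scaffold protein on the small subunit, fell by 0.59 (SE 0.15, edgeR adjusted p = 0.00553). FAU, made as a fusion with a ubiquitin-like protein, had 0.15 (SE 0.10, adjusted p = 0.257). Of 15 other genes with TOP mRNAs, mostly translation factors, 5 were lower and 0 higher, with a median log2 fold change of -0.24. EEF1D and EEF1G, subunits of the factor that recharges eEF1A, fell by 0.48 (SE 0.14, adjusted p = 0.0112) and 0.44 (SE 0.12, adjusted p = 0.00858).

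Of 39 genes of ribosome biogenesis 8 were lower and 0 higher in Takara, with a median of -0.25. Beside these, 10.5% of all genes were lower and 18.4% higher. BYSL and TSR1, which act in small subunit maturation, fell by 0.66 (SE 0.21, edgeR adjusted p = 0.0205) and 0.58 (SE 0.17, adjusted p = 0.0137). Of 10 tested regulators of TOP mRNA translation 2 were lower, with a median of -0.12. These were LARP1, which binds the TOP sequence, at -0.66 (SE 0.17, adjusted p = 0.00418), and the S6 kinase RPS6KB1 at -0.37 (SE 0.11, adjusted p = 0.0123). In Lexogen edgeR and DESeq2 each called 0 genes of these 4 lists. At an unadjusted p under 0.05 in edgeR there were 2, 3, 2 and 0, against 1877 of 11108 genes.

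Among the other marker lists, 1 of 8 B cell markers was called lower in Takara, near the 10.5% of all genes. Their median log2 fold change was -0.40, and 7 of 8 were negative. At an unadjusted p under 0.05 (edgeR) 4 of the 8 were lower, against 2279 of 12620 genes. Of the monocyte markers 3 of 6 were higher, against 18.4% of all genes. By edgeR 0 of 2 tested erythroid and 0 of 4 tested platelet markers were called, also at an unadjusted p under 0.05, while DESeq2 called 1 platelet marker higher. In Lexogen 8 of 10 neutrophil markers were higher, against 5.09% of all genes. There 0 T cell, B cell, monocyte, erythroid or platelet markers were called by edgeR, and DESeq2 called 0 of these. At an unadjusted p under 0.05 (edgeR) there were 3, 1, 3, 1 and 0, against 1877 of 11108 genes. The B cell markers had a median of -0.43 in Lexogen, with 8 of 8 negative. The T cell markers had -0.27, with 12 of 14 negative. The haemoglobin gene HBA1 was at 0 in both kits.

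**Figure D5:**
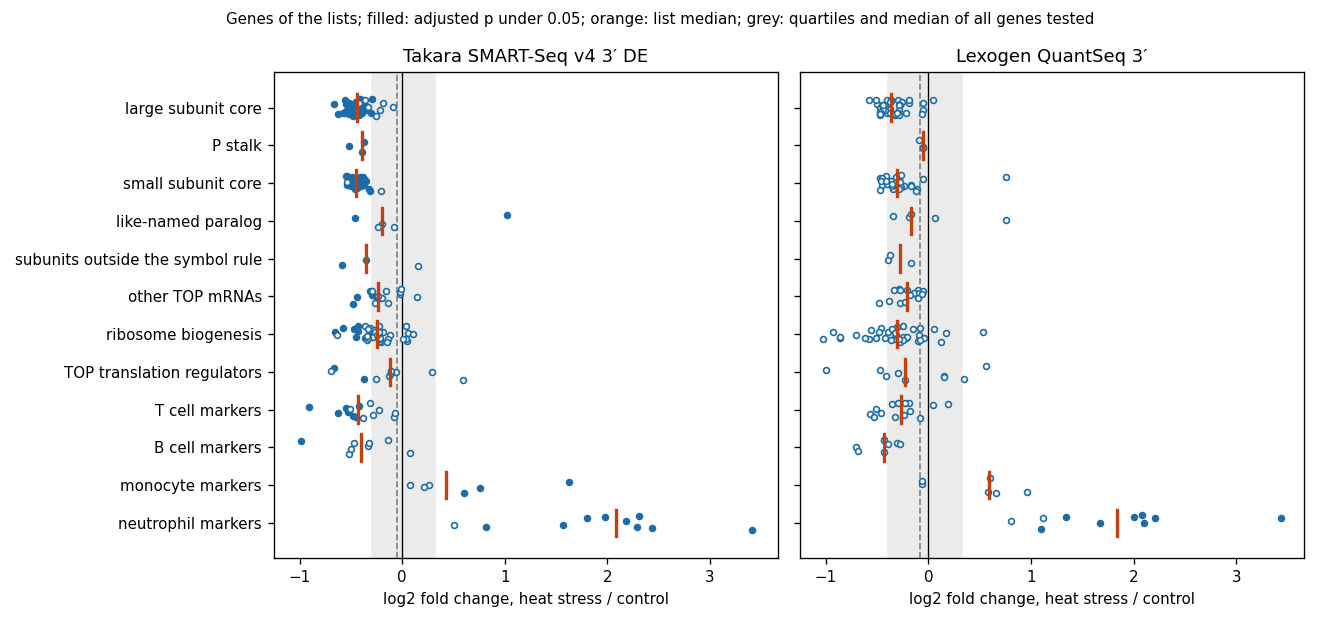
Log2 fold change of heat stress against control (x axis) for the genes reported here of the ribosomal protein lists, related lists and blood cell marker lists (rows), in Takara (left) and Lexogen (right); filled points have an adjusted p under 0.05, orange bars are list medians, and the grey band and dashed line are the quartiles and median of all genes tested. In Takara the large subunit, P stalk and small subunit have medians of -0.44, -0.39 and -0.45, and the neutrophil markers have a median of 2.08.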

How the data were processed

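Raw counts of uniquely mapped reads per gene were deposited by the authors for each of the 54 libraries, in an unstranded column and a column for each strand. Before that, the authors had trimmed the forward reads (Trimmomatic 0.39) and aligned them with STAR 2.7.10b to ARS-UCD2.0, counting in its GeneCounts mode. The 4 totals above the genes were kept out of library sizes and tests. Groups came from the sample labels. Animal 20 was left out because the labels and the study's design table differ on its condition.

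Unstranded counts were tested with edgeR 4.0.16 (R 4.3.3; filterByExpr, TMM, quasi-likelihood F-test, Benjamini-Hochberg adjustment over all genes tested, threshold 0.05). SE is the absolute log2 fold change divided by the square root of F. DESeq2 1.42.0 was an alternative, and the steps were tested on simulated data. Within-animal ratios used log2(CPM + 1). Without molecular identifiers, a molecule can be counted more than once. Other scalings, filters, strand columns, run settings and placings of animal 20 were also run.

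The members and gene lists were chosen with earlier results of these data known. Members were named as the 6 largest changes in each direction among those called in Takara (3 in Lexogen, where none was called), the P stalk, RPSA, RPS27A, paralogs with namesakes, and the 4 largest kit ratios each way. From other lists the 2 largest changes called in Takara were named. Some genes that this rule names are not reported here, and they are left out of the plots of single genes but not of counts or medians. FAU, RPS3, RPS9, RPS23, RPL37, RPL15 and RPS25 were added after their values were seen.

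Same-numbered libraries come from the same animal. The correlation of their centred gene levels exceeded 0.1 for 10 of the 12 Takara pairs (median 0.236) and for 3 of the 12 Lexogen pairs (median 0.00541). The study's model had no animal block, and the block was run as an alternative.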

Additional observations from a re-analysis of the deposited data

Results flagged for a closer look

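RPS23 and RPL37 were listed at 0 in the unstranded count of every library, and a signal appeared in the sense-strand count, which the comparisons on unstranded counts do not use. RPS23 had between 2096 and 20410 sense-strand reads in the Takara libraries and between 2042 and 17995 in the Lexogen libraries. RPL37 had between 8150 and 43198 in Takara and between 6829 and 54780 in Lexogen.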

How the results depend on the processing

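The 66 lower members of Takara numbered 55 to 72 under the alternatives not named next. In these, between 5.31% (no filter) and 17.3% (total count) of all genes were lower. They became 6 in run 1 alone, 7 in run 2 alone, 0 with animal 20 as control in edgeR and 31 in DESeq2, an alternative chosen after seeing the data. The 1 higher member became 0 in run 1 alone and with animal 20 as control in edgeR. The count of all genes called became 931 in run 2 alone, and 0 (edgeR) or 1696 (DESeq2) with animal 20 as control. In Lexogen 0 members and 0.459% of all genes were lower. The members became 6 with DESeq2 (0.880% of all genes), 1 with RLE size factors (0.504%) and 1 with the total count (0.468%). Without the filter they became 13, against 7.28% of all genes. They became 3 with sense-strand counts (0.551%), 5 with animal 20 as heat stress (0.820%) and 6 in run 1 alone (0.199%). With DESeq2 and animal 20 as heat stress 12 members were lower and 1 higher, against 1.20% and 4.72% of all genes. The 616 genes called in Lexogen became 1006 with DESeq2, 3273 without the filter, 402 in run 1 alone, 0 in run 2 alone, 2 with animal 20 as control, and 1285 or 169 with DESeq2 and animal 20 as heat stress or control. Without the filter, the 312 genes called for the interaction of run and heat in Takara became 146 and the 3 in Lexogen 0. Without Lexogen heat stress replicate 15, 0 members were called. The cause of these changes was not tested.

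With the animal as a replicate block, 55 members were lower in Takara, 53 of them among the 66. Of all genes in Takara 10.2% were then lower and 14.9% higher. In Lexogen 0 members were lower with the block. All genes called there became 66 in place of 616. At an unadjusted p under 0.05 the members became 20 in place of 33, and all genes 1566 in place of 1877.

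For the 31 genes of the naming rule in Takara, 342 of 434 values under alternatives kept their direction and side of the threshold, 85 lost the call, 6 gained it and 1 reversed, and of 345 values for 23 members in Lexogen, 17 gained a call, 9 reversed and the others kept both. Reversed in run 2 alone were RPS27L in Takara (0.012), and in Lexogen RPLP1 (0.85), RPLP2 (1.01), RPL7L1 (0.022), RPL7 (0.22), RPL26 (0.45) and RPS4X (0.17). RPL26L1 in Lexogen became -0.047 with the total count, -0.014 with animal 20 as heat stress and -0.050 in run 1 alone. The 8 genes with the largest kit ratios kept direction and call in 56 of 56 values. The median SE over members was 0.187 in Lexogen and 0.126 in Takara.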

Other observations

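The libraries of animal 20, labelled as heat-stressed at 6PM, entered none of the main comparisons, only the alternatives that place them as heat stress or control. The members took 2.62% of gene reads in its Takara library, below the lowest Takara heat stress library at 3.18%. In its Lexogen library they took 4.63%, within the range of Lexogen heat stress from 3.99% to 11.1%.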
